A study of Mus musculus with 6 samples.

Results

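Keratinocytes, the cells that line the skin, mouth and esophagus, carry a set of surface proteins and small effector proteins that mark the basal layer, where the cells divide, or the layers above it, where they mature. The transcription factor p63 is required for these stratified epithelia to form, and several of the genes described here are known from skin as genes that p63 acts on. The 10 genes were chosen by name, with earlier results of these data known. They are Sfn, Trim29, Bnc1, Pdpn, Ngfr, Ly6d, Aqp3, Dapl1, Krtdap and Dmkn. Each of them had its own row among the 23284 gene symbols of the count table, and all 10 were among the 13849 genes with enough counts to test.

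Their RNA was counted in esophageal epithelium isolated from mouse embryos at E12.5. The p63KO group had 3 libraries from embryos homozygous for Trp63-CreERT2, a Cre recombinase inserted into the p63 gene, and the control group had 3 libraries from their littermates. The sample titles mark the controls as WT, for wild type, and no label gives a Trp63 genotype for them beyond that. The labels do not say whether 1 embryo or several went into a library. P-values therefore describe how these particular libraries vary, which may be technical. The comparison asks which genes of the forming esophageal lining depend on p63.

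Total counts were between 13335328 and 16506401 in the p63KO libraries and between 16948971 and 20093838 in the control libraries. Levels are given as CPM, the counts of a gene per 1000000 counts of its library, after TMM scaling of the totals. On this scale a count of 3 was worth 0.153 to 0.223. Trp63 itself was at 76.7, 62.2 and 75.4 CPM in p63KO libraries and at 583.9, 674.1 and 550.6 CPM in control libraries, which matched the labels. All 13 listed markers of epithelium had counts in every library, with a summed level between 5280 and 5441 CPM in p63KO and between 4843 and 5122 CPM in control. In these bulk samples, fewer cells of a type and less RNA per cell cannot be told apart.

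Of the 10 genes, 6 fell in p63KO, none rose and 4 did not pass the test (edgeR quasi-likelihood test, Benjamini-Hochberg adjusted p under 0.05 over all genes tested). Among all 13849 genes tested, 14.3% were called lower and 15.3% higher. The 10 genes were chosen with earlier results of these data known, so comparisons of them with all genes are descriptive only. The 6 that fell were Aqp3, Trim29, Sfn, Bnc1, Dapl1 and Pdpn, and the 4 that did not pass were Ly6d, Ngfr, Krtdap and Dmkn. The p63KO and control ranges did not overlap for 7 of the 10, Ngfr being the seventh, all lower in p63KO, whereas 22.2% of all genes tested had p63KO ranges wholly below control. The median log2 fold change of the 10 was -2.40, beside -0.01 over all genes tested. At an unadjusted p under 0.05, 7 were lower and 0 higher, and the share over all genes at that threshold was not taken. DESeq2 and limma-voom each called 6 lower and 0 higher. Of all 13849 genes, DESeq2 called 1908 lower and 2117 higher, and limma-voom called 1933 lower and 2149 higher.

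**Figure D1:**
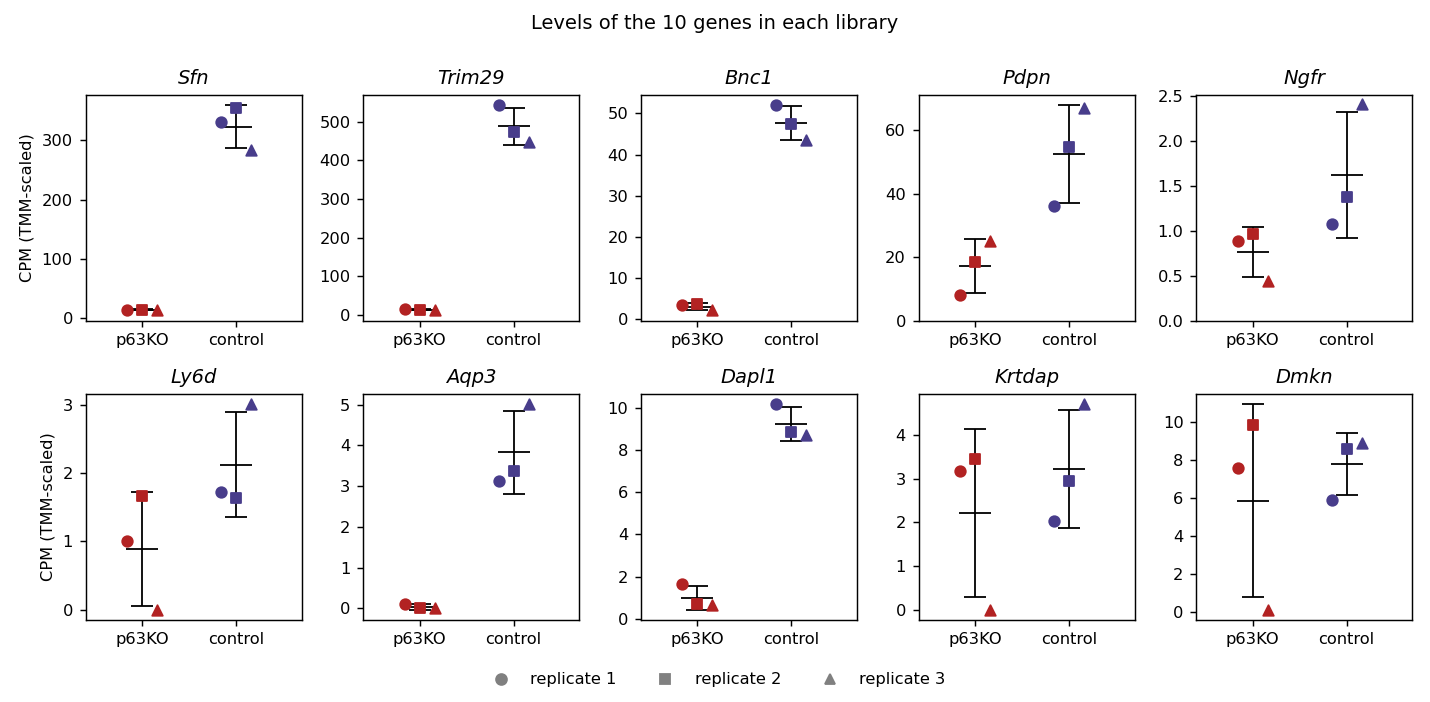
CPM (TMM-scaled, linear axes that include 0) of each gene in the 3 p63KO libraries (red, left) and the 3 control libraries (dark blue, right), with marker shape for the replicate number and black bars for mean ± SD. Sfn, Trim29, Bnc1, Aqp3 and Dapl1 lay far below control in each p63KO library, whereas Krtdap and Dmkn reached control levels in p63KO replicates 1 and 2 and were at 0 and 0.15 CPM in p63KO replicate 3.

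Among the intracellular effectors, Sfn, Trim29 and Bnc1 showed the steadiest falls, with the smallest standard errors of all the genes described here. Sfn encodes 14-3-3 sigma, the epithelial member of a family of proteins that bind phosphorylated partners. It was at 14.5, 13.02 and 14.2 CPM in p63KO libraries and at 331.1, 354.7 and 284.0 CPM in control libraries. No p63KO library came near any control library, and the 3 p63KO values were close to each other. The mean was 13.9 ± 0.79 CPM in p63KO, 4.30% of the 323.3 ± 36.0 CPM in control (SD, n = 3 each), with a log2 fold change of -4.54 (SE 0.10, edgeR adjusted p = 3.2e-08).

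Trim29 encodes a member of the tripartite-motif family that lacks the RING domain common in that family. Its level was 16.2, 13.4 and 12.48 CPM in p63KO libraries and 542.3, 473.2 and 448.0 CPM in control libraries. The groups stood apart by more than an order of magnitude in every library, and Trim29 kept 2.87% of its control level. The log2 fold change was -5.11 (SE 0.12, edgeR adjusted p = 3.2e-08), and 34 tested genes had a lower one.

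Bnc1 encodes basonuclin, a zinc finger protein of dividing basal keratinocytes and of germ cells. Its p63KO libraries held 3.48, 3.53 and 2.08 CPM and its control libraries 52.0, 47.5 and 43.6 CPM. All p63KO values were below all control values, and the log2 fold change was -3.96 (SE 0.18, edgeR adjusted p = 6.0e-07). In the GENCODE annotation 98 bases of its exons overlap a gene on the other strand, 4833418N17Rik, and the strand setting of the counting is not given, so reads of the 2 cannot be told apart there.

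Dapl1, named for its likeness to death-associated protein and also known as an early epithelial differentiation gene, was at 1.65, 0.69 and 0.67 CPM in p63KO libraries and at 10.1, 8.84 and 8.71 CPM in control libraries. The highest p63KO library, replicate 1, was still well below the lowest control library. Dapl1 had 47 counts in p63KO and 510 in control, and its log2 fold change was -3.16 (SE 0.33, edgeR adjusted p = 9.6e-05).

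At the cell surface, Aqp3 had the lowest fold change of the 10. Aqp3 is the water and glycerol channel of basal keratinocytes. Its counts were 2, 0 and 0 in p63KO libraries and 58, 66 and 85 in control libraries, so the gene was almost absent from p63KO. The depth-scaled p63KO level was 1.18% of control, with an exact 95% interval from 0.142% to 4.31% that covers counting error only. The fitted log2 fold change was -6.21 (SE 0.63, edgeR adjusted p = 7.8e-05), and with so few p63KO counts its size depends on the fit, as shown by a value of -8.99 without p63KO replicate 1, the one library with p63KO counts.

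Pdpn encodes podoplanin, a mucin-like membrane glycoprotein that connects to the actin skeleton and is also made by lymphatic endothelium and some mesenchyme. Libraries of p63KO had 8.03, 18.4 and 24.95 CPM and those of control 36.2, 54.7 and 66.8 CPM. The groups did not overlap, but the libraries within each were farther apart than for Sfn, Trim29 or Bnc1. In both groups the level rose from replicate 1 to replicate 2 and again to replicate 3. The mean was 17.1 ± 8.54 CPM in p63KO and 52.6 ± 15.4 CPM in control (SD, n = 3 each), with a log2 fold change of -1.63 (SE 0.35, edgeR adjusted p = 0.0073). With robust dispersions the same fold change had an adjusted p of 0.072, and over the 14 alternatives its adjusted p ranged from 0.00013 to 0.072. The call held with each library left out. With a block for the replicate number, the log2 fold change was -1.69 (SE 0.14).

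Ngfr encodes the p75 neurotrophin receptor, which marks basal cells of the esophagus and also cells of the neural crest. It was scarce, with 15, 14 and 6 counts in p63KO libraries and 20, 27 and 41 in control libraries. In CPM this was 0.89, 0.97 and 0.45 in p63KO and 1.07, 1.38 and 2.41 in control, so the groups did not overlap but lay close together. The log2 fold change of -1.05 (SE 0.44) did not pass the test (edgeR adjusted p = 0.11, between 0.083 and 0.33 over the alternatives). Sox10, a defining gene of the neural crest, had 26, 26 and 6 counts in p63KO and 50, 35 and 90 in control, lowest in p63KO replicate 3 and highest in control replicate 3 as Ngfr was. The part of neural crest cells in the Ngfr values was not tested.

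Ly6d encodes a small protein held in the membrane by a lipid anchor. Its counts were 17, 24 and 0 in p63KO libraries and 32, 32 and 51 in control libraries. Replicate 2 of p63KO, at 1.66 CPM, lay above control replicate 2, at 1.63 CPM, so the groups overlapped, while p63KO replicate 3 had none. The log2 fold change was -1.22 (SE 0.72, edgeR adjusted p = 0.25).

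**Figure D2:**
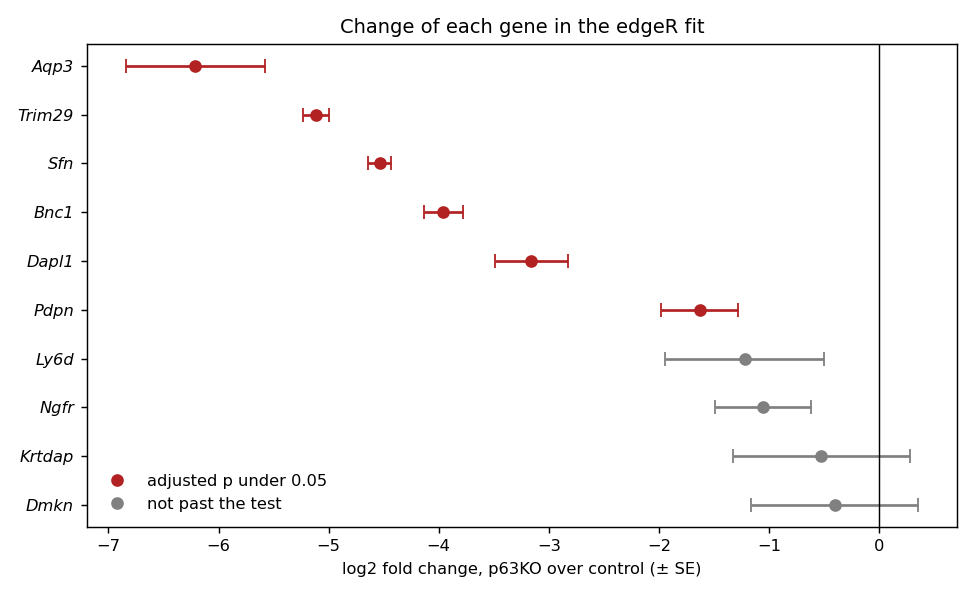
Log2 fold change of each gene, p63KO over control, with its standard error as a horizontal bar, from the edgeR fit over all genes. The 6 genes in red, from Aqp3 at -6.21 to Pdpn at -1.63, passed the test, and the 4 in grey, from Ly6d at -1.22 to Dmkn at -0.40, did not and had wide errors.

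The secreted products of maturing keratinocytes, Krtdap and Dmkn, differed between the p63KO libraries far more than between the groups. Both genes lie side by side on mouse chromosome 7 in the order Sbsn, Dmkn, Krtdap, and all 3 are expressed above the basal layer in skin. Krtdap, the keratinocyte differentiation-associated protein gene, had 54, 50 and 0 counts in p63KO libraries and 38, 58 and 80 in control libraries. Dmkn, the dermokine gene, had 128, 142 and 2 counts in p63KO libraries and 110, 168 and 151 in control libraries. Replicates 1 and 2 of p63KO were within or near the control range for both genes, and replicate 3 was far below every other library. The count of 0 for Krtdap allows up to 0.223 CPM in that library.

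Log2 fold changes were -0.52 for Krtdap (SE 0.80, edgeR adjusted p = 0.68) and -0.40 for Dmkn (SE 0.76, edgeR adjusted p = 0.74). Without p63KO replicate 3 they turned to 0.04 for Krtdap (SE 0.37, edgeR adjusted p = 0.95) and 0.16 for Dmkn (SE 0.24, edgeR adjusted p = 0.70). For Ly6d the fold change was -0.67 (SE 0.42) without that library, -1.95 (SE 0.85) without p63KO replicate 2 and -2.25 (SE 0.997) with limma-voom, none past the test (adjusted p = 0.32, 0.14 and 0.13). Sbsn, the suprabasin gene, had 210, 211 and 35 counts in p63KO and 194, 248 and 200 in control. The lower fitted levels of Krtdap and Dmkn in p63KO came from this 1 library, and no change was called with it or without it. Its total count, 13335328, was the lowest of the 6, and that of p63KO replicate 2 was next at 14460621.

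The same library was set apart for other genes of the upper layers. Of the 14 tested genes in a list of keratinocyte differentiation, 8 were in p63KO replicate 3 at under 25% of their lowest value in any other library, and so were Ly6d, Krtdap and Dmkn among the 10 genes described here. Over all tested genes this held for 69, or 0.498%. In each of the other 5 libraries it held for none of the 10 genes, for 0 or 1 of the 14 and for 0.0361% to 0.303% of all genes. The 8 were Lor, Krt1, Calml3, Sbsn, Dsg1a, Cdsn, Klk7 and Crct1, named here after their values were seen.

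Lor, which encodes loricrin of the cornified envelope, had the highest counts of these 8, with 329, 392 and 3 counts in p63KO libraries and 361, 432 and 386 in control libraries. For every 100 Lor counts there were 38.9 and 36.2 Dmkn counts in p63KO replicates 1 and 2, and 30.5, 38.9 and 39.1 in control libraries. The corresponding Krtdap counts were 16.4 and 12.8 in p63KO replicates 1 and 2, and 10.5, 13.4 and 20.7 in control libraries. The p63KO values of Dmkn and Krtdap per Lor lay within the control range. For Krt14, a basal keratin, there were 21.3 and 20.9 counts per 100 Lor counts in p63KO replicates 1 and 2, below the 37.7, 40.3 and 40.9 in control libraries. For Ly6d there were 5.17 and 6.12 in p63KO replicates 1 and 2, also below the 8.86, 7.41 and 13.2 in control libraries. Of the 12883 tested genes with at least 1 CPM in both p63KO replicates 1 and 2, 17 had no more than 2 counts in replicate 3. Krt77, Krt14 and Lce1m were among them, and Krt77 had 145, 191 and 0 counts in p63KO and 155, 208 and 157 in control. Postn, a gene of mesenchyme, and Tnnt3, a gene of skeletal muscle, were also among them, with 59, 25 and 1 and with 23, 17 and 2 counts in p63KO. Whether this RNA came from esophageal epithelium or from other tissue was not tested, so the levels of Krtdap, Dmkn, Lor and Krt1 in p63KO replicates 1 and 2 and in the control libraries may not be those of the esophageal epithelium.

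**Figure D3:**
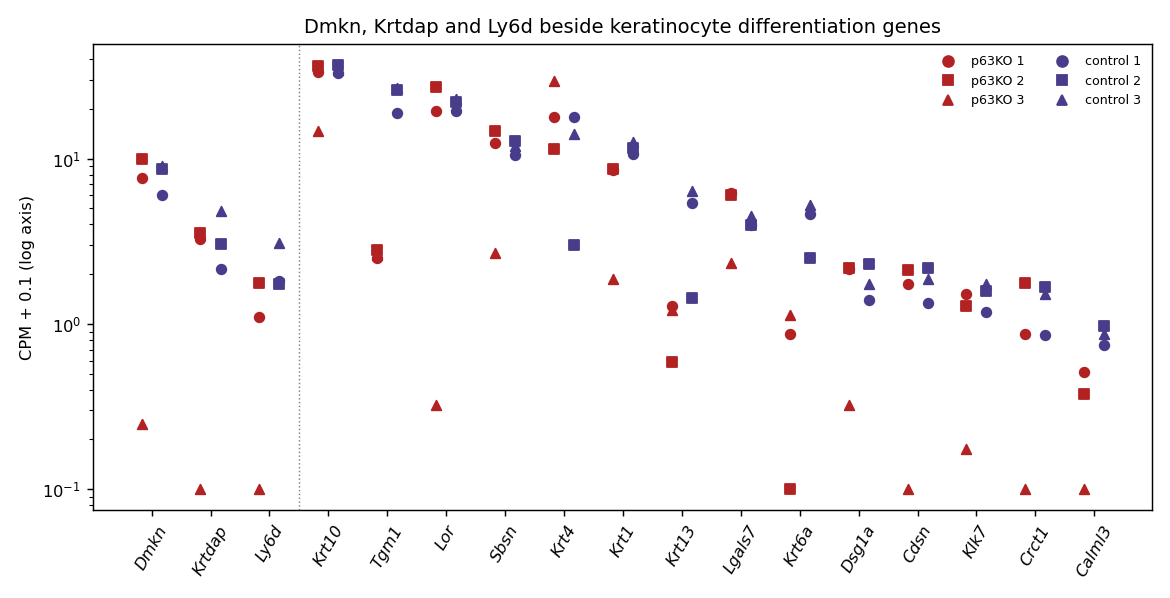
CPM + 0.1 on a log axis for Dmkn, Krtdap and Ly6d (left of the dotted line) and the 14 tested keratinocyte differentiation genes, with p63KO libraries in red and control libraries in dark blue. The red triangles, p63KO replicate 3, lie below every other library for Dmkn, Krtdap, Ly6d and 10 of the 14 listed genes, Lor and Cdsn among them, whereas for Tgm1 all 3 p63KO libraries lie together below control.

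Of those 14 differentiation genes, 3 fell in p63KO, 0 rose and 11 did not pass the test (0 were higher at an unadjusted p under 0.05, and DESeq2 called 0 higher), with a median log2 fold change of -0.53. The shares over all genes tested were 14.3% lower and 15.3% higher. Tgm1, the transglutaminase that cross-links the cornified envelope, was at 2.55 ± 0.14 CPM in p63KO and 23.7 ± 4.36 CPM in control (SD, n = 3 each), and its counts were 41, 39 and 34 in the p63KO libraries. Krt6a and Krt13 were also called, with log2 fold changes of -2.73 and -2.19. The Krt6a call was lost without p63KO replicate 1 (edgeR adjusted p = 0.051) and by DESeq2 (0.058), and the Krt13 call without p63KO replicate 2 or 3 or control replicate 1 (0.065, 0.053 and 0.055) and by limma-voom (0.091).

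Promoter windows from RefSeq on the GRCm38.p6 build, 250 bases before to 50 after the start site, were found for 8 of the 10 genes. The submitters' processing notes name mm9 for the deposited counts, and these windows were matched by gene symbol alone. The windows below are those of the 2 neighbouring genes that were both near 0 in p63KO replicate 3, followed by those of 2 genes low in all 3 p63KO libraries. Capitals mark matches, on either strand, to the AP-1 motif TGANTCA or to TATAAA.
Krtdap, chr7:30787655-30787954, plus strand: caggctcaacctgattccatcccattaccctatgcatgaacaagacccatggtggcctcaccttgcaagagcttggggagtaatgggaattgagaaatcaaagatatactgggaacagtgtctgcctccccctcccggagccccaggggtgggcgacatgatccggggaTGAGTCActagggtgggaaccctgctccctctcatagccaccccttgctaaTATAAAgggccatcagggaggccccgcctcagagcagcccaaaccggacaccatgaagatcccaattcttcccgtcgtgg
Dmkn, chr7:30763506-30763805, plus strand: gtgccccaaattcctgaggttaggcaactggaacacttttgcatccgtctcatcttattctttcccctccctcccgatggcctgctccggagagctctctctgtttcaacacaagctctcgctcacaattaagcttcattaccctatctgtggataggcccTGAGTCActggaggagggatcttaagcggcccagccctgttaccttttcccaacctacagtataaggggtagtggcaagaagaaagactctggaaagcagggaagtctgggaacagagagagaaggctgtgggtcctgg
Aqp3, chr4:41098134-41098433, minus strand: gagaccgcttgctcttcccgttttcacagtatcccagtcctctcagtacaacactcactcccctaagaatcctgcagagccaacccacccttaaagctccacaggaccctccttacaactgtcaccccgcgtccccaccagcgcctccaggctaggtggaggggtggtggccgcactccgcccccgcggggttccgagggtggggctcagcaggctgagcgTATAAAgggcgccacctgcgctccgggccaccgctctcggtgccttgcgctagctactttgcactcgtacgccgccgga
Dapl1, chr2:59484403-59484702, plus strand: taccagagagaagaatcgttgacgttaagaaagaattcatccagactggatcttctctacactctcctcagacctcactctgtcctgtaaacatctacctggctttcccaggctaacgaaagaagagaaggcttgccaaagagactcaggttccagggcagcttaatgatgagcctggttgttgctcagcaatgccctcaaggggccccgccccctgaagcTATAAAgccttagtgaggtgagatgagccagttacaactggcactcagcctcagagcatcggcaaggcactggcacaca

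AP-1 is the dimer of Fos and Jun proteins. Its motif stood between bases -81 and -75 from the start in Krtdap and between -89 and -83 in Dmkn, where the other 2 listed windows of the gene, 1 of them shifted by 2 bases from the one shown, also held 1 match each. None of the windows of the other 6 genes had one, and 7.81% of all 32851 windows did. TATAAA began at base -29 in Aqp3, -29 in Dapl1 and -30 in Krtdap, and 13.6% of all windows held it at any place. The windows of Sfn, Bnc1, Pdpn, Ngfr and Dmkn did not hold it. Sfn, Bnc1 and Pdpn were also called lower in p63KO, so the windows shown do not stand for all genes that fell. The half-site of the p53 family, searched by its standard consensus on both strands, was in no window of the 8 genes and in 8.36% of all windows. The matches do not overlap, and they describe letters in the window only.

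Levels between genes were compared per kilobase of exon, using GENCODE exons on GRCm38, which may differ from the annotation the authors counted on. In p63KO, Pdpn had 9.43 ± 4.70 CPM per kilobase and Sfn 8.62 ± 0.49, followed by Trim29 at 4.03 ± 0.56, Krtdap at 3.26 ± 2.83 and Dmkn at 2.67 ± 2.31 (SD, n = 3). In control the order was Sfn at 200.4 ± 22.3 CPM per kilobase, Trim29 at 140.5 ± 14.1, Pdpn at 28.9 ± 8.49, Dapl1 at 13.6 ± 1.17 and Bnc1 at 10.3 ± 0.90 (SD, n = 3). Below these, control levels per kilobase of Krtdap (4.77 ± 1.997), Dmkn (3.56 ± 0.75), Ly6d (2.85 ± 1.03) and Aqp3 (2.09 ± 0.56) lay within each other's spread from one neighbour to the next, and Ngfr was lowest at 0.47 ± 0.20. In p63KO, Pdpn and Sfn did not differ beyond their spread, and neither did Trim29, Krtdap and Dmkn. The p63KO means of Krtdap and Dmkn include replicate 3, with 0 and 2 counts.

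**Figure D4:**
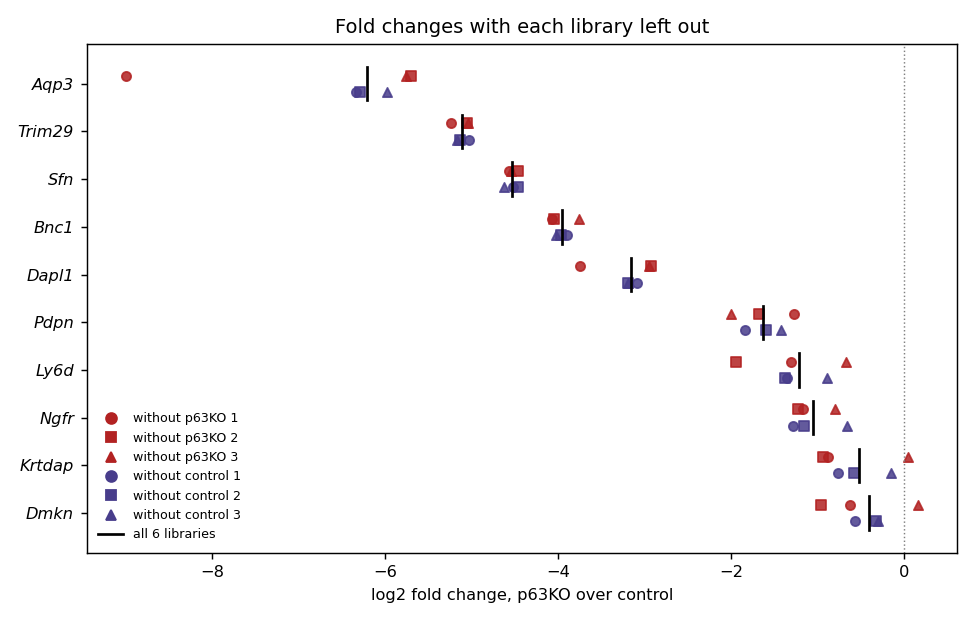
Log2 fold change of each gene, p63KO over control, with all 6 libraries (black bar) and with 1 library left out (red for a p63KO library, dark blue for a control library, shape for its number). Sfn stayed between -4.62 and -4.47 and Trim29 between -5.24 and -5.03, whereas Krtdap and Dmkn crossed 0 when p63KO replicate 3 was left out.

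Among relatives of the 10 genes, both falls and rises were found. Every count of calls below is to be read beside the shares over all genes tested, 14.3% lower and 15.3% higher. No list was tested as a set. Of the 7 genes of the 14-3-3 family, Sfn fell, Ywhaq rose and 5 did not pass, with a family median of 0.03 on the log2 scale. Ywhaq was at 129.9 ± 7.77 CPM in p63KO and 106.6 ± 10.9 CPM in control (log2 fold change 0.29, SE 0.08, edgeR adjusted p = 0.031), and its call was lost without p63KO replicate 1 or 3 or control replicate 1 or 2 (0.067, 0.11, 0.10 and 0.096). The log2 fold changes of the other members were 0.03 for Ywhab, 0.07 for Ywhae, 0.21 for Ywhag, -0.10 for Ywhah and -0.02 for Ywhaz.

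Of 38 tested genes named Trim with a number, 5 fell and 11 rose, with a median log2 fold change of 0.01. Over all genes tested, 14.3% were called lower and 15.3% higher. Next to Trim29, the lowest p among those that fell belonged to Trim26 (log2 fold change -0.31) and Trim13 (-0.37). The number that fell was 3 without p63KO replicate 2 or 3 or any 1 control library, and the Trim13 call was lost without p63KO replicate 2 or control replicate 1 (edgeR adjusted p = 0.11 and 0.084). Trim9 and Trim67, known from neurons, led those that rose. Trim9 was at 11.6 ± 0.95 CPM in p63KO and 0.63 ± 0.10 CPM in control, Trim67 at 12.6 ± 3.64 CPM in p63KO and 0.29 ± 0.05 CPM in control, and Trim46 at 15.7 ± 4.65 CPM in p63KO and 4.32 ± 1.10 CPM in control (SD, n = 3 each).

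Bnc2, the close relative of Bnc1, was not called (log2 fold change -0.37, edgeR adjusted p = 0.33). Dap, the relative of Dapl1, fell by 0.41 on the log2 scale (SE 0.09, edgeR adjusted p = 0.0075) and was at 57.8 ± 6.49 CPM in p63KO and 77.0 ± 4.03 CPM in control (SD, n = 3 each). Of 12 aquaporin genes listed, only Aqp3 and Aqp11 had enough counts to test, and Aqp11 was at -0.04 (edgeR adjusted p = 0.96). The other 10 aquaporins had between 0 and 16 counts in any library.

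Of 14 tested members of the Ly6 and uPAR family, to which Ly6d belongs, 5 fell, 2 rose and 7 did not pass, and the median log2 fold change was -0.13. Lypd3, a lipid-anchored protein of stratified epithelia also called C4.4A, was at 2.56 ± 0.65 CPM in p63KO and 11.8 ± 1.38 CPM in control (log2 fold change -2.19, SE 0.22, edgeR adjusted p = 7.3e-05). Cd59a, an inhibitor of complement, fell by 1.55 and Ly6g6e by 0.73 on the log2 scale. Lypd6, a modulator of Wnt receptors, rose (0.40, SE 0.09), and so did Lypd2 (0.98, SE 0.26). Without p63KO replicate 2 or 3 or control replicate 1, 3 members fell, and without p63KO replicate 1 or 3, 1 rose. The Ly6g6e call was lost without p63KO replicate 2 or 3 (edgeR adjusted p = 0.060 and 0.057) and the Lypd2 call without p63KO replicate 1 or 3 (0.065 and 0.089).

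The ligands of Ngfr moved in opposite directions. The 3 neurotrophin genes described here passed the test. Ntf5, which encodes neurotrophin-4, was at 5.02 ± 0.54 CPM in p63KO and 45.9 ± 4.09 CPM in control (SD, n = 3 each; log2 fold change -3.20, SE 0.12, edgeR adjusted p = 3.3e-07). Ntf3 also fell, to 4, 8 and 8 counts in p63KO libraries, against 86, 121 and 81 in control libraries. Bdnf rose to 713, 538 and 582 counts in p63KO libraries, against 231, 164 and 158 in control libraries (log2 fold change 2.03, SE 0.15), and no library of the groups overlapped. Bdnf was higher and Ntf3 and Ntf5 lower with each library left out, with adjusted p under 0.05 (edgeR).

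Among 13 tested receptors and partners of neurotrophins, 1 fell, 4 rose and 8 did not pass. Sorcs2, a sortilin-family receptor that acts with p75 in the response to proneurotrophins, was at 44.2 ± 6.14 CPM in p63KO and 204.2 ± 20.3 CPM in control (log2 fold change -2.21, SE 0.11, edgeR adjusted p = 1.4e-06). Its relatives Sort1 and Sorcs1 rose, by 0.54 (SE 0.05) and 1.60 (SE 0.35) on the log2 scale, and the kinase gene Irak1 rose by 0.23. Without control replicate 2 only 2 rose, and the Irak1 call was lost (edgeR adjusted p = 0.054). Of the neurotrophin receptor kinase genes, Ntrk2 had at most 4 counts in any library, and Ntrk3 was at -0.91 (edgeR adjusted p = 0.12).

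Of the 7 tested partners of podoplanin, 1 fell, 1 rose and 5 did not pass. Cd44, a hyaluronan receptor that binds podoplanin, was at 2.37 ± 0.99 CPM in p63KO and 6.80 ± 2.68 CPM in control (log2 fold change -1.51, SE 0.39, edgeR adjusted p = 0.017). That call was lost without control replicate 1 (adjusted p = 0.064). Cd9, a tetraspanin that binds podoplanin, was at 188.6 ± 17.7 CPM in p63KO and 108.2 ± 9.74 CPM in control (log2 fold change 0.80, SE 0.09, edgeR adjusted p = 0.00014). The linker gene Ezr was at -0.14, Msn at -0.23 and Rdx at 0.10 on the log2 scale, none past the test. Clec1b and Ccl21a, whose products are expressed by platelets and lymphatic vessels, had no count in any library.

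**Figure D5:**
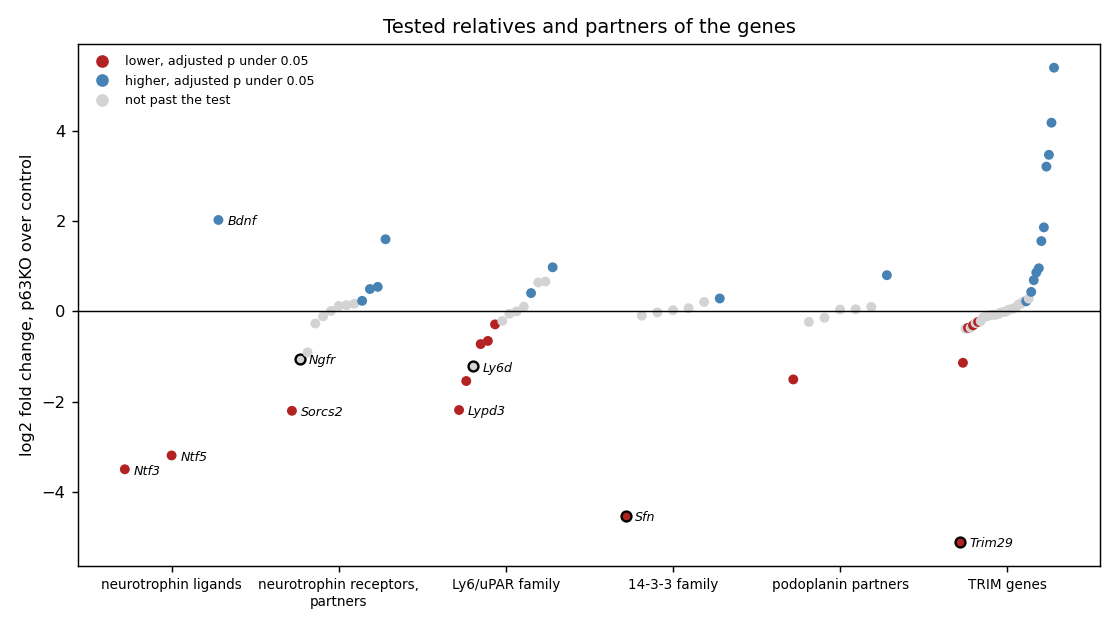
Log2 fold change, p63KO over control, of the tested genes in 6 family or partner lists, in red where called lower, in blue where called higher and in grey where not past the test, with black outlines on Ngfr, Ly6d, Sfn and Trim29. Sfn at -4.54 and Trim29 at -5.11 lie far below their relatives, and the neurotrophin ligands split into Ntf3 and Ntf5 below 0 and Bdnf above it.

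Markers of cells other than epithelium were read beside Pdpn, Ngfr and the others, since some of the 10 genes are also made outside the epithelium. Of 14 tested mesenchyme genes, 7 fell and 2 rose in p63KO, beside 14.3% lower and 15.3% higher over all genes tested. The summed level of the 15 listed genes in the table was between 1403 and 1793 CPM in p63KO and between 669.2 and 818.1 CPM in control, but most of it in p63KO was Dcn, at 1222 ± 151.3 CPM. Without Dcn the sum was between 251.5 CPM, in replicate 3, and 450.4 CPM in p63KO and between 458.2 and 665.8 CPM in control. Without p63KO replicate 3, 4 mesenchyme genes fell, and without control replicate 1, 3 fell. With robust dispersions 3 fell and 1 rose, since the Twist1 call was lost (edgeR adjusted p = 0.065).

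The 14 neural crest and enteric neuron genes summed to between 255.3 and 269.97 CPM in p63KO and between 164.4 and 180.9 CPM in control. Without Ret, which neuroendocrine cells also express, the sums were between 153.8 and 182.4 CPM in p63KO and between 162.1 and 177.2 CPM in control. Of 10 tested, Ednrb fell and Ret rose. The Ednrb call was lost without p63KO replicate 1 or 3 or control replicate 1 or 3 (edgeR adjusted p = 0.085, 0.11, 0.070 and 0.087), with a replicate block (0.065) and by limma-voom (0.066).

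Endothelial genes, 12 listed, summed to between 55.2 and 62.7 CPM in p63KO and between 18.3 and 25.0 CPM in control, where Prox1 (48.2 ± 3.46 CPM in p63KO and 10.01 ± 1.91 CPM in control) made up most of the p63KO sum. Lyve1, a defining gene of lymphatic endothelium, had 0 counts in all p63KO libraries and 8, 2 and 11 in control libraries, too few to test. Of 8 tested endothelial genes, 0 fell (0 at an unadjusted p under 0.05 and 0 by DESeq2), Prox1 and Flt4 rose and 6 did not pass. Log2 fold changes of these 6 were 0.03 for Pecam1, -0.82 for Cdh5, -0.41 for Kdr, -0.62 for Tie1, 0.76 for Tek and -0.004 for Esam. Flt4, a receptor of lymphatic endothelium, was at 3.05 ± 0.77 CPM in p63KO and 0.97 ± 0.66 CPM in control (SD, n = 3 each; log2 fold change 1.63, SE 0.50, edgeR adjusted p = 0.036). Flt4 missed the threshold when p63KO replicate 1, 2 or 3 or control replicate 3 was left out (0.063, 0.11, 0.086 and 0.052), Lyve1 was called lower with no filter on low counts (0.025), and Clec14a without control replicate 2 (0.028). Mesothelial genes, 7 listed, summed to between 5.89 and 11.1 CPM in p63KO and between 5.47 and 14.96 CPM in control, and of 4 tested Upk1b fell and Gpm6a and Msln rose. Blood genes, 10 listed, summed to between 22.5 and 34.98 CPM in p63KO and between 13.2 and 49.9 CPM in control, and none of 5 tested was called, while 2 were called higher without control replicate 3. The part of these cells in the fall of Pdpn was not tested.

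Of the 13 epithelial markers, 5 rose in p63KO (among them Krt8, Krt18 and Cldn6), 2 fell (Cdh1 and Grhl2) and 6 did not pass. Cdh1, the epithelial cadherin, was at 683.9 ± 23.0 CPM in p63KO and 904.8 ± 28.3 CPM in control, a log2 fold change of -0.40 that was small beside those of Sfn or Trim29. Without p63KO replicate 1, 3 markers rose. Without p63KO replicate 1, 2 or 3 or control replicate 1 or 2, 1 fell, since the Grhl2 call was lost.

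For each of the 10 genes, the 2 genes with the most similar profile were found by the root mean square difference between centred log2(CPM + 0.5) values over the 6 libraries. Sfn was closest to Vwa1 (0.16) and Ngef (0.18), Trim29 to Slc7a10 (0.20) and Col7a1 (0.22), and Bnc1 to Spon1 (0.19) and Dscaml1 (0.21). Aqp3 was closest to Egfr (0.18) and Tgm1 (0.19), Dapl1 to Ifitm3 (0.12) and Rapgefl1 (0.16), Pdpn to Lgr5 (0.27) and Ddit4l (0.41), and Ngfr to Zfp187 (0.16) and Cfb (0.18). Ly6d was closest to Krt1 (0.24) and Col1a2 (0.32), Krtdap to Dmkn (0.37) and Krt1 (0.41), and Dmkn to Krt77 (0.28) and Krt14 (0.41). Candidate neighbours needed a mean of at least 5 CPM, so Krtdap, Ly6d, Aqp3 and Ngfr could not be found as one. The measure flattens genes of low counts such as Aqp3, and is a description over the libraries that also define the groups.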

How the data were processed

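RNA libraries of esophageal epithelium from E12.5 embryos (3 p63KO, 3 control) were compared. The authors deposited whole-number counts per gene symbol with no normalization. Per the submitters' processing notes, the tools were TopHat2 2.1.0, bcl2fastq 1.8.4 and DESeq2, with the mouse build mm9; no source used here gives the read counter, its annotation or its strand setting. Columns were matched to samples through the sample descriptions.

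Counts were fitted with edgeR 4.0.16 in R 4.3.3: filterByExpr (minimum count 10, minimum total 15), TMM scaling, a quasi-likelihood test of group with no covariate, Benjamini-Hochberg adjustment over 13849 genes. The SE is the log2 fold change divided by the square root of F. The fit was also run on counts simulated with the average scatter of genes at each level in these data. Such counts have no library set apart as p63KO replicate 3 was. That run therefore says nothing on Krtdap, Dmkn or Ly6d, and no result of it is used here. Groups of 3 libraries cannot go below p = 0.1 in an exact permutation test, so single-gene p-values come from this fit.

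The 10 genes, the lists and the tests were chosen with earlier results of these data known. Some single genes are not reported here and were left out of the lists. Named genes were the 10, each gene of the small families, the 3 called genes of lowest p in each direction of every other list, and the 2 nearest profiles (mean of at least 5 CPM, clone and model names left out); others were chosen after their values were seen. Alternatives used DESeq2 1.42.0, limma-voom (limma 3.58.1), other scalings and filters, robust dispersions, a block for the replicate number, and omission of each library in turn.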

Additional observations from a re-analysis of the deposited data

How the results depend on the processing

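Of the 10 genes, 6 were called lower and 0 higher under 13 of the 14 alternatives (DESeq2, limma-voom, 2 other scalings, 2 other filters, a replicate block and each library left out), and 5 lower with robust dispersions, where Pdpn was not called. The fold changes that turned sign without p63KO replicate 3 were those of Krtdap (0.041) and Dmkn (0.16), and neither was called under any alternative. With 1 library left out Krtdap lay between -0.94 and 0.041 and Dmkn between -0.96 and 0.16. With limma-voom, Krtdap was at -1.89, Dmkn at -1.54 and Ly6d at -2.25, none past the test (adjusted p = 0.29, 0.29 and 0.13). Over all genes, with 1 library left out, between 1650 and 1965 were higher and between 1500 and 1806 lower, against 2113 and 1985 with all libraries. With library totals in place of TMM, 2351 were higher and 1736 lower. The replicate numbers were not taken as pairs, since the labels do not say that they mark a shared litter or day. Correlations of same-numbered libraries' deviations were 0.20, 0.27 and 0.05, and each library correlated best with its own number. The 0.05 was close to the 0.04 of p63KO replicate 1 with control replicate 3. The labels give no pairing, and whether the libraries were paired was not tested. With a replicate block 2397 genes were higher and 2381 lower, and the edgeR adjusted p of Pdpn was 0.00013. Ngfr, Ly6d, Krtdap and Aqp3 had few counts, so moderate changes of the first 3 may not be detectable at this depth. For Krtdap, Dmkn and Ly6d the error also depended on p63KO replicate 3. With that library the SE was 0.80, 0.76 and 0.72, and without it 0.37, 0.24 and 0.42.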
